A study of Mus musculus with 2 samples.

Results

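The proteasome subunit genes were followed in CD4 T cells that had divided after transfer and were taken from the lung during an allergic response. The set held the 47 of 32285 genes in the gene tables whose symbol starts with Psma to Psmg and a digit, without pseudogenes and without Psmb8, Psmb9 and Psmb10, the catalytic subunits of the immunoproteasome. By role they were 8 alpha and 8 beta subunits of the core, 6 ATPases and 3 further subunits of the cap base, 8 lid subunits, 4 activators, 1 inhibitor, 4 chaperones of core assembly and 3 of cap assembly. The pattern also took in 2 genes by name only. Psmc3ip, found through interaction with an ATPase subunit, codes for a recombination factor and not for a proteasome subunit. Psme2b is a near copy of the activator gene Psme2. Summed over both libraries, 45 genes had at least 50 transcript counts, and Psma8 and Psmb11, the alternative core subunits of testis and thymus, had 0.

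The donors were wild-type (WT) mice given house dust mite (HDM) extract, a common cause of allergic asthma, into the airway on day 0 and on days 7 to 11. Lung CD4 T cells taken on day 14 were dyed with Cell Trace Violet (CTV), which is diluted at every division, and transferred into C57BL/6 (WT) or MARCH1-/- hosts. MARCH1 is a ubiquitin ligase that takes MHC class II off the surface of antigen-presenting cells. Both host groups were challenged with HDM, and 4 days later lung donor cells with little dye left, which had therefore divided, were sorted for single-cell RNA sequencing of transcript 3' ends. The deletion lay in the hosts, so every cell measured was of WT genotype and March1 counts in the donor cells cannot check the labels. There was 1 library per host, and the labels do not say how many animals entered each.

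The proteasome degrades proteins that carry ubiquitin chains. Its core is a barrel of alpha and beta rings whose beta subunits Psmb5, Psmb6 and Psmb7 cut peptide bonds. A cap of a base and a lid feeds the core. Subunits of the base hold the ubiquitin chain, its ATPases unfold the substrate, and a subunit of the lid removes the chain. PA28 and PA200 activators open the core without ubiquitin. Dividing cells need the proteasome to destroy cyclins and inhibitors of mitosis on time. Activated T cells exchange the catalytic subunits for the immune forms Psmb8, Psmb9 and Psmb10, which favour peptides for MHC class I.

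Counts were unique molecular identifiers (UMIs), each of which marks 1 captured transcript end. Levels were therefore not divided by transcript length, and are given as counts per 1000000 UMIs of the same cells (CPM). Barcodes with at least 500 UMIs, at least 250 genes and at most 10% mitochondrial UMIs were taken as cells. They numbered 352 in the WT host library (median 6086.5 UMIs) and 156 in the MARCH1-/- host library (median 8017 UMIs), and no cell barcode was shared. A cell was called cycling when at least 0.5% of its UMIs came from fixed lists of 43 S-phase and 54 G2 and mitosis genes, none of them a proteasome gene. That gave 121 cycling and 231 other cells (34.4% cycling, exact binomial 95% interval 29.4 to 39.6) in the WT host library and 62 and 94 (39.7%, 32.0 to 47.9) in the MARCH1-/- host library. All 12 CD4 T cell markers had UMIs. Summed markers of macrophages, NK cells, CD8 T cells and epithelium stayed between 0 and 13.9 CPM in every library and state, and Csf1r and Adgre1 were at 0. Summed B cell markers stood between 17.2 and 114 CPM, with Ighm at 211 UMIs over both libraries and Ms4a1 at 0.

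Because 21 of 45 members were called higher in cycling than in other cells, against 15.0% of all genes tested, the stretches before their starts were searched for short motifs. RefSeq start windows (build GRCm38.p6) were matched by symbol for 39 of the 47 genes, in 42 windows, and the 250 bases before each start were read on both strands. The letters CCGGAAG, the core bound by ETS factors, stood in 33.3% of the member windows and in 8.98% of 21262 windows of protein-coding genes. TGACNNNGC, the core of the antioxidant response element read by NRF1 and NRF2, stood in 11.9% against 10.4%, and belonged to Psmb5, Psmb6, Psmc6, Psmd12 and Psmd9. CCAAT stood in 33.3% against 35.4%, GGGCGG, the GC box, in 52.4% against 42.6%, and TTCCCGCC, an E2F site, in 4.76% against 2.47%. No motif contains another, though GGGCGG and TTCCCGCC can share bases on opposite strands. A match is a description of letters and not of binding.

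The 120 bases before the start of 4 genes that rose in cycling cells are printed 5' to 3' on the gene's strand, with the motif in capitals. The 4 genes were taken from those whose stretch holds the antioxidant or the ETS core, so they do not show how often either occurs. Psmc2, Psmc6 and Psmg1 rose as well and hold the ETS core in this stretch, but are not printed. Psmb5 and Psmb6 are catalytic subunits and hold the antioxidant core, at chr14:54617996-54618115 (minus strand) and chr11:70525237-70525356 (plus strand). Psmc1 and Psmd2 are subunits of the cap base and hold the ETS core as its reverse complement, CTTCCGG, at chr12:100110082-100110201 and chr16:20651532-20651651 (both plus strand).
Psmb5: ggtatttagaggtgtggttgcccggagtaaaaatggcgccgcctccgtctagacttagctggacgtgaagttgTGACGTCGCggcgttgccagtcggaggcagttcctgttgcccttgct
Psmb6: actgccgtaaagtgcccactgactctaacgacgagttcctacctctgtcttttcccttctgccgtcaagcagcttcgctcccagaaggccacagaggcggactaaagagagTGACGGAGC
Psmc1: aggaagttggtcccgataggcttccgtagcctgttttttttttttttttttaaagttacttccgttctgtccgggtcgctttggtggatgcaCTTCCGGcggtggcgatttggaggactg
Psmd2: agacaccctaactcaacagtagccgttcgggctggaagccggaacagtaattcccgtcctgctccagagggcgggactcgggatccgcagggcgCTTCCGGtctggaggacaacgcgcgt
The antioxidant core of Psmb6 reached the last base before the start, while that of Psmb5 ended 38 bases before it. The ETS core ended 21 bases before the start of Psmc1 and 19 bases before that of Psmd2. Of the 39 genes with a window, 13 held the ETS core and 5 the antioxidant core. Of the 16 among them called higher, 6, with Psmc3ip, held the ETS core and 3 the antioxidant core. Whether the genes called higher differ from the rest in these motifs was not tested.

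Proteasome transcripts made up 0.546% to 0.774% of all UMIs in the 4 groups of cells. Summed over all members, the level was 6108 CPM in cycling and 5464 CPM in other cells of the WT host library, and 7739 and 6134 CPM in those of the MARCH1-/- host library. Cycling cells were higher in both libraries, by a log2 ratio of 0.16 (0.11 to 0.21) and 0.34 (0.28 to 0.39), with exact 95% intervals that cover counting error only. Cycling cells also held more UMIs in all, and the gap per cell was wider, with 65.2 against 30.2 member UMIs per cell in the WT host library and 119.8 against 40.2 in the MARCH1-/- host library. The most abundant member was the activator Psme1, followed by the alpha subunit Psma7, and the least abundant with any UMI was Psme2b.

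**Figure D1:**
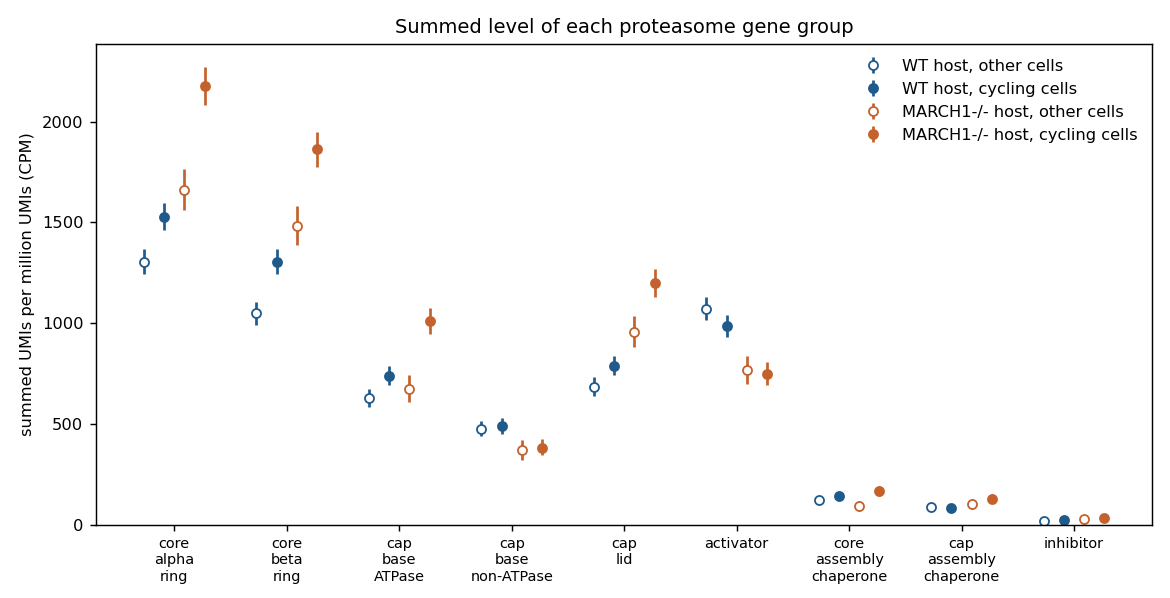
Summed level of each proteasome gene group (y axis, CPM) in cycling cells (filled) and other cells (open) of the WT host (blue) and MARCH1-/- host (orange) libraries, with bars for exact Poisson 95% intervals of counting error. The core rings, the ATPases and the lid were highest in cycling cells of the MARCH1-/- host library, while the activators were highest in other cells of the WT host library (1072 CPM).

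Many proteasome genes rose in cycling cells, among them 6 of 7 expressed genes of the core beta ring and 4 of 6 ATPases of the cap. In edgeR's quasi-likelihood test of the summed counts, with the libraries as the 2 replicates of this contrast, 21 of 45 members (46.7%) passed at an adjusted p under 0.05 with a higher level in cycling cells. The background was 15.0% of the 7623 genes tested called higher and 11.9% called lower. None of the members was called lower, and in this fit and with DESeq2 none was lower at an unadjusted p under 0.05, while 1, Psme2, was with cycling read from Mki67 or Top2a. The fitted log2 difference was above 0 for 39 of 45 members, against 48.3% of all genes, and its median was 0.46 against -0.03. Within each library the CPM ratio had a median of 0.22 over the members and -0.12 over all genes in the WT host library. There 35 of 45 members were above 0, against 41.8% of all genes. In the MARCH1-/- host library these medians were 0.44 and -0.10, and 39 of 45 members were above 0, against 44.4% of all genes. Whether the difference between these 2 medians exceeds the spread between animals cannot be tested with 1 library per host.

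The calls depended on the fit and on the cells compared. The fit has 1 residual degree of freedom, and edgeR drew the spread of each gene to a value shared by all genes. DESeq2's Wald test called 1 member higher, against a background of 4.34% (1.37% lower). The edgeR fit without the library term called 1 against 3.27% (0.512% lower), and edgeR on cells with 5000 to 15000 UMIs called 1 of 44 against 9.40% (6.12% lower). In all 3 the call was Psmc3ip, so no proteasome subunit passed there. In these fits 39 of 45, 39 of 45 and 36 of 44 members were above 0, against 50.4%, 48.4% and 49.6% of all genes. With cycling set at 0.3% of UMIs 4 members were called against 8.58% (6.04% lower), at 1% 15 of 44 against 15.1% (12.9% lower), by Mki67 or Top2a UMIs in thinned cells 3 of 44 against 7.00% (4.83% lower), with no low-count filter 7 against 5.55% (2.49% lower), and without doublets 17 against 14.4% (11.4% lower). No member was called lower under any of these 8 alternatives. Cycling cells held more UMIs (median 10222 against 4873 UMIs in the WT host library and 14164 against 6273.5 in the MARCH1-/- host library), and their summed CD4 T cell markers were lower (3806 against 5001 CPM, and 5179 against 7118 CPM, each with 12 of 12 markers detected). Among cells of 5000 to 15000 UMIs cycling cells remained deeper, at medians of 10179.5 against 7272 and 11334 against 7501 UMIs. Summed regulatory T cell markers were lower in cycling cells as well (887 against 1251 CPM in the WT host and 974 against 1758 CPM in the MARCH1-/- host library). Of their 4 genes, Foxp3 (-1.13 ± 0.29, adjusted p 0.000908), Ikzf2 (-0.73 ± 0.17, adjusted p 0.000208) and Ctla4 (-0.65 ± 0.12, adjusted p 2.99e-07) fell by edgeR and Il2ra did not pass (-0.13 ± 0.16, adjusted p 0.592). Of the type 2 cytokines Il13 was called lower by edgeR (-0.50 ± 0.13, adjusted p 0.00063), but the libraries differed in direction. It stood at 198 against 538 CPM in the MARCH1-/- host library and at 793 against 779 CPM in the WT host library. Il4 (-0.34 ± 0.18, adjusted p 0.174) and Il5 (-0.39 ± 0.23, adjusted p 0.199) did not pass by edgeR. The part of depth and of these markers in the result was not tested.

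**Figure D2:**
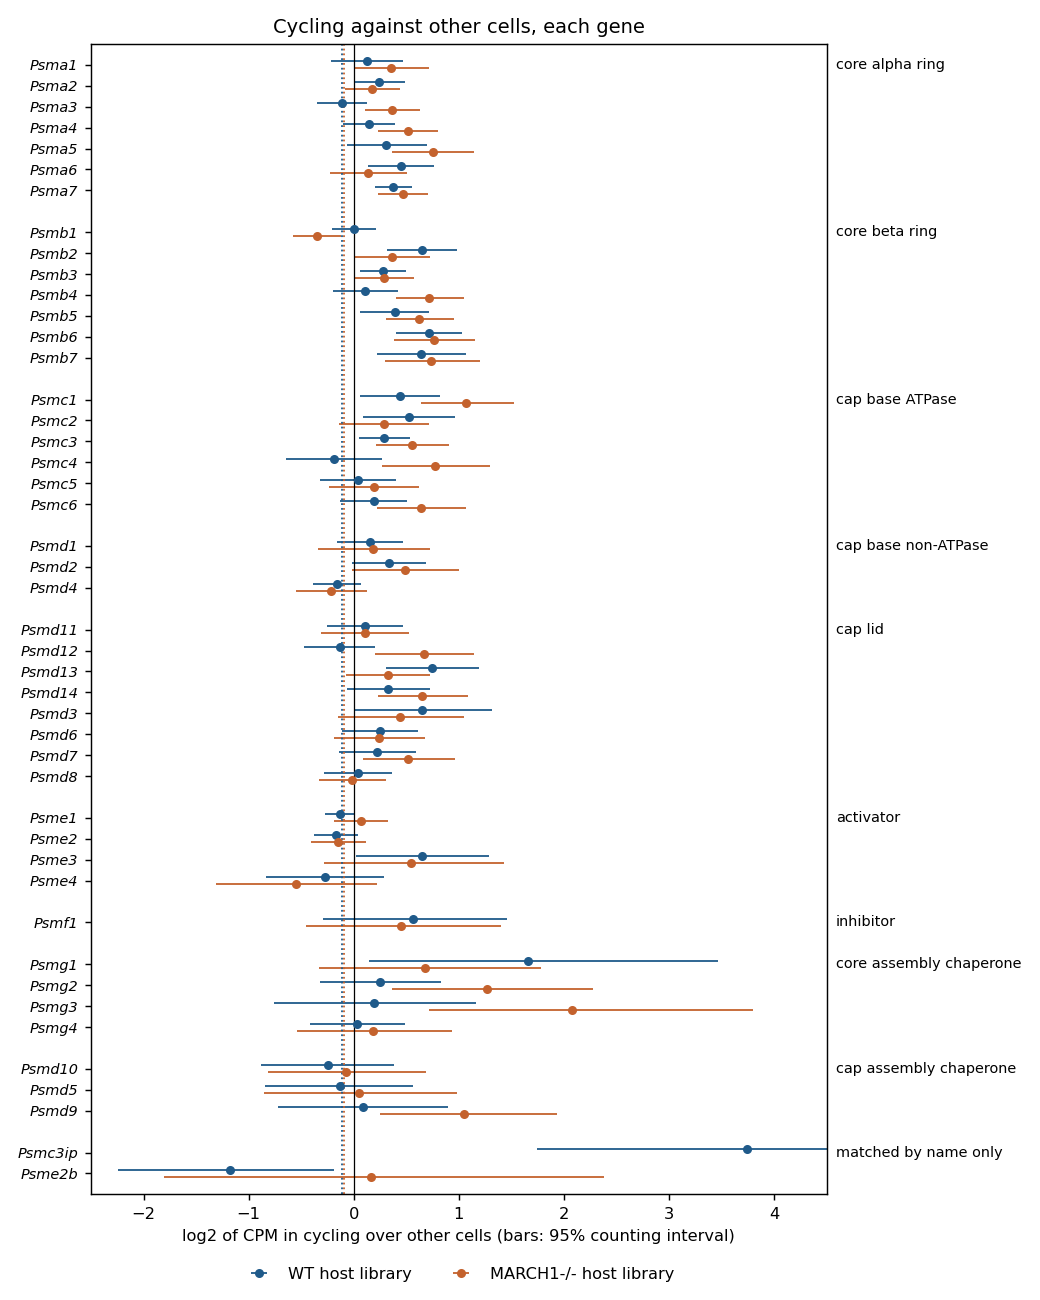
Log2 ratio of CPM in cycling over other cells (x axis) for each member with UMIs, grouped by role, in the WT host (blue) and MARCH1-/- host (orange) libraries. Bars are exact 95% counting intervals, dotted lines mark the median of all genes in each library, and the axis ends at 4.5, so that part of the bar of Psmc3ip, and its MARCH1-/- host point with 0 UMIs in other cells, are not drawn. Most points lie right of both dotted lines, and those of Psmb1, Psmd4, Psme2 and Psme4 do not exceed 0 beyond their bars in either library.

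The alpha ring forms the outer gate of the core. Psma7 (ENSMUSG00000027566, chr2:180036374-180042433, GRCm38), its most abundant gene, stood at 469 and 361 CPM in the cycling and other cells of the WT host library and 491 and 354 CPM in those of the MARCH1-/- host library. Both libraries were higher in cycling cells, by a log2 ratio of 0.38 (0.20 to 0.55) and 0.47 (0.24 to 0.71). The edgeR log2 difference was 0.52 ± 0.14 (SE), with an adjusted p of 0.000856. Psma5 (0.63 ± 0.18, adjusted p 0.00385) and Psma4 (0.43 ± 0.15, adjusted p 0.0241) also rose by edgeR. The other 4 did not pass. Their fitted log2 differences were all above 0, from 0.22 for Psma3 to 0.41 for Psma6, and Psma3 pointed in opposite directions in the 2 libraries (-0.11 and 0.36). Summed over the ring, the level was 1526 against 1305 CPM in the WT host library and 2176 against 1660.1 CPM in the MARCH1-/- host library.

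The beta ring holds the proteolytic sites, and 6 of its 7 expressed genes rose in cycling cells. Psmb6, the subunit that cuts after acidic residues, stood at 176 and 107 CPM in the cycling and other cells of the WT host library and 221 and 129.9 CPM in those of the MARCH1-/- host library. Its 2 cycling groups lay above its 2 other groups, and the edgeR log2 difference was 0.84 ± 0.17 (adjusted p 1.45e-05). It was the proteasome subunit called under the most alternatives, 8 of 11, with log2 differences between 0.47 and 0.88 and adjusted p-values up to 0.156. Psmb7, the trypsin-like subunit, stood at 95.2 and 61.0 CPM in the cycling and other cells of the WT host library and 157 and 94.2 CPM in those of the MARCH1-/- host library. Its edgeR log2 difference was 0.79 ± 0.20 (adjusted p 0.000675). The cycling cells of the WT host library and the other cells of the MARCH1-/- host library were nearly level, at 95.2 and 94.2 CPM. Psmb5, the chymotrypsin-like subunit and the target of the drug bortezomib, stood at 142 and 108 CPM in the cycling and other cells of the WT host library and 285 and 185 CPM in those of the MARCH1-/- host library. It rose within each library (edgeR log2 0.61 ± 0.17, adjusted p 0.00192), while its other cells in the MARCH1-/- host library lay above the cycling cells of the WT host library.

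The remaining beta subunits are structural. Psmb2 (0.62 ± 0.17, adjusted p 0.00243), Psmb4 (0.51 ± 0.17, adjusted p 0.01) and Psmb3 (0.39 ± 0.15, adjusted p 0.0375) rose by edgeR. For Psmb4 the difference came with a log2 ratio of 0.11 (-0.19 to 0.42) in the WT host library and 0.72 (0.40 to 1.05) in the MARCH1-/- host library. Psmb1 (ENSMUSG00000014769, chr17:15475021-15499751, GRCm38), the most abundant gene of the ring, was the exception. It stood at 290.1 and 289 CPM in the cycling and other cells of the WT host library and 365 and 465 CPM in those of the MARCH1-/- host library. The cycling and other levels were the same within counting error in the WT host library, while the cycling level lay below the other in the MARCH1-/- host library with a log2 ratio of -0.35 (-0.58 to -0.12), and the edgeR difference was -0.07 ± 0.14 (adjusted p 0.785).

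The 3 catalytic genes were set against the immune genes that can take their places. Together Psmb5, Psmb6 and Psmb7 stood at 412 against 276 CPM in the WT host library and 664 against 409 CPM in the MARCH1-/- host library. The log2 ratios were 0.58 (0.38 to 0.78) and 0.70 (0.48 to 0.91). Psmb8, Psmb9 and Psmb10 together stood at 583 against 561 and 928 against 962 CPM, and 0 of 3 passed the edgeR test. The constitutive share of the UMIs of all 6 genes was 41.4% (38.7 to 44.2) in cycling and 33.0% (30.2 to 35.9) in other cells of the WT host library (exact binomial 95% intervals of counting error). In the MARCH1-/- host library it was 41.7% (39.2 to 44.2) and 29.9% (26.8 to 33.1). The constitutive share was thus higher in cycling cells of both libraries, and the intervals of the 2 hosts overlapped in both states.

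All 3 pairs had the same direction. For Psmb7 of Psmb7 and Psmb10 the share was 55.4% (48.6 to 62.1) in cycling against 40.4% (33.4 to 47.7) in other cells of the WT host library, and 60.6% (54.3 to 66.8) against 39.7% (31.7 to 48.1) in the MARCH1-/- host library. For Psmb6 of Psmb6 and Psmb9 it was 55.9% (50.9 to 60.8) against 45.4% (39.7 to 51.2), and 52.0% (47.0 to 56.9) against 36.4% (30.0 to 43.1). In these pairs the constitutive gene had the larger part in cycling cells and the immune gene the larger part in other cells. The interval included equal parts for Psmb7 in cycling cells of the WT host library. It did so too for Psmb6 in other cells of that library and in cycling cells of the MARCH1-/- host library. Which gene was larger is not resolved there. The Psmb5 and Psmb8 pair differed least, with 27.8% (24.4 to 31.4) against 24.0% (20.6 to 27.7) for Psmb5 in the WT host library, where the intervals overlap, and 31.5% (28.4 to 34.7) against 23.8% (20.1 to 27.9) in the MARCH1-/- host library. Psmb8 held most of this pair's UMIs in every group. Much of the transcript end of Psmb5 (61.0%) is also found in another gene, against 0% for Psmb8, so that counting can lose Psmb5 UMIs. The same limit holds for the share over all 3 pairs.

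**Figure D3:**
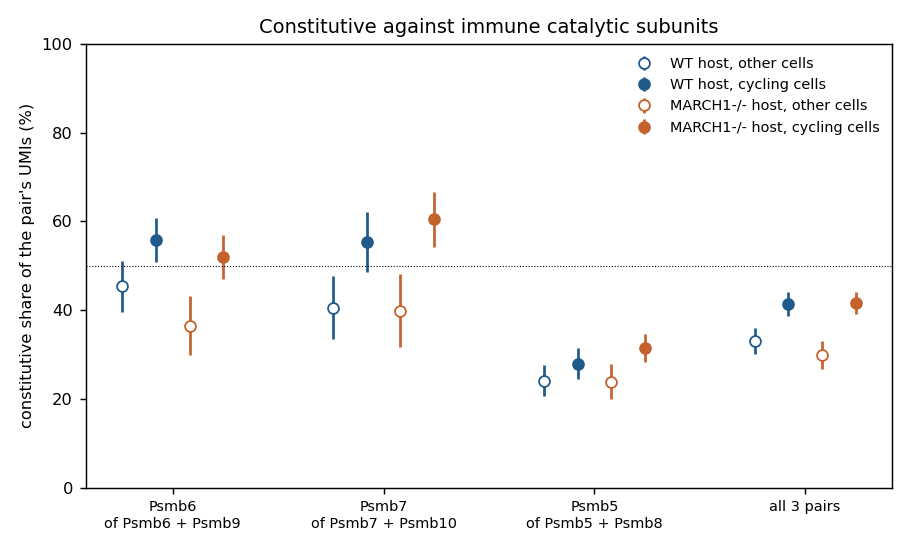
Share of UMIs from the constitutive subunit in each pair of constitutive and immune catalytic genes (y axis, percent), in cycling (filled) and other cells (open) of the WT host (blue) and MARCH1-/- host (orange) libraries, with exact binomial 95% intervals; the dotted line marks 50%. Every cycling point lies above the other point of its library, from 27.8% against 24.0% for Psmb5 in the WT host library to 60.6% against 39.7% for Psmb7 in the MARCH1-/- host library.

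The ATPase ring of the cap base unfolds substrates, and 4 of its 6 genes rose in cycling cells. Psmc3 (ENSMUSG00000002102, chr2:91054009-91066369, GRCm38), the most abundant, stood at 245 and 200.2 CPM in the cycling and other cells of the WT host library and 244 and 166 CPM in those of the MARCH1-/- host library. Cycling cells were higher in both libraries, and the edgeR log2 difference was 0.51 ± 0.16 (adjusted p 0.00765). Psmc1 had the largest difference of the ring, with 106 and 78.2 CPM in the cycling and other cells of the WT host library and 195 and 92.6 CPM in those of the MARCH1-/- host library. Its edgeR log2 difference was 0.84 ± 0.19 (adjusted p 0.000117), and it was called under 7 of 11 alternatives. The 2 cycling groups lay above both other groups, at the closest by 106 against 92.6 CPM. Psmc2 (0.51 ± 0.20, adjusted p 0.0458) and Psmc6 (0.49 ± 0.18, adjusted p 0.0261) rose as well. Psmc4 did not pass (adjusted p 0.21 by edgeR) and had a log2 ratio of -0.19 (-0.64 to 0.27) in the WT host and 0.77 (0.27 to 1.30) in the MARCH1-/- host library, a difference that was not tested. Psmc5 had the smallest difference, 0.21 ± 0.19.

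Of the non-ATPase subunits of the base, Psmd2, a scaffold that docks ubiquitin-like domains, rose (0.50 ± 0.20, edgeR adjusted p 0.0433). It stood at 118 and 93.9 CPM in the cycling and other cells of the WT host library and 111 and 79.6 CPM in those of the MARCH1-/- host library. Psmd4 (ENSMUSG00000005625, chr3:95032694-95042614, GRCm38), a receptor for ubiquitin chains and the most abundant gene of this group, stood at 229 and 256 CPM in the cycling and other cells of the WT host library and 182 and 211 CPM in those of the MARCH1-/- host library. It was lower in cycling cells of both libraries within counting error, and its edgeR difference of -0.08 ± 0.16 (adjusted p 0.771) was the third lowest of all members. Psmd1, the other scaffold, did not pass (0.27 ± 0.19).

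In the lid, 3 of 8 genes rose in cycling cells by edgeR. Psmd13, a structural subunit, stood at 90.5 and 54.0 CPM in the cycling and other cells of the WT host library and 167 and 133 CPM in those of the MARCH1-/- host library. The edgeR log2 difference was 0.62 ± 0.20 (adjusted p 0.00802), and the other cells of the MARCH1-/- host library lay above the cycling cells of the WT host library. Psmd14, the metalloprotease that removes ubiquitin chains from substrates, rose by 0.59 ± 0.19 (adjusted p 0.0115) and Psmd3 by 0.64 ± 0.26 (adjusted p 0.0471). Psmd8 (ENSMUSG00000030591, chr7:29174188-29180701, GRCm38), the most abundant lid gene, stood at 126 and 123 CPM in the cycling and other cells of the WT host library and 222 and 224 CPM in those of the MARCH1-/- host library. Its cycling and other levels were close in each library (edgeR log2 0.11 ± 0.17, adjusted p 0.676). The other 4 lid genes had fitted differences from 0.21 to 0.46 and did not pass.

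None of the 4 activators passed the test. Psme1 (ENSMUSG00000022216, chr14:55578123-55581529, GRCm38), the alpha chain of PA28, stood at 624 and 684 CPM in the cycling and other cells of the WT host library and 359 and 343 CPM in those of the MARCH1-/- host library. Its cycling and other levels differed little in each library, and the edgeR log2 difference was 0.06 ± 0.13 (adjusted p 0.788). Psme2, the beta chain of the same ring, gave -0.05 ± 0.15 (adjusted p 0.836). Psme3, the nuclear PA28 gamma, was fitted at 0.71 ± 0.29 (adjusted p 0.055), the highest of the group, and Psme4, the PA200 activator of the nucleus, at -0.27 ± 0.27 (adjusted p 0.502), the second lowest of all members. Summed, the activators stood at 986 against 1072 CPM and 748 against 767 CPM, so that the core's log2 ratios of 0.27 (0.20 to 0.34) and 0.36 (0.28 to 0.44) stand beside -0.12 (-0.23 to -0.01) and -0.04 (-0.21 to 0.13) for the activators.

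Of the 4 Psmg chaperones that build the core, 3 rose, all at low counts, while Pomp, a more abundant core chaperone outside the set, did not pass (0.22 ± 0.14, adjusted p 0.278). Psmg1, which pairs with Psmg2 to assemble the alpha ring, stood at 12.4 and 3.91 CPM in the cycling and other cells of the WT host library and 31.3 and 19.5 CPM in those of the MARCH1-/- host library. It had only 63 UMIs in all, and its edgeR log2 difference of 1.13 ± 0.44 (adjusted p 0.0419) was the largest of the members after Psmc3ip. Psmg2, its partner, was fitted at 0.71 ± 0.28 (adjusted p 0.0421). Psmg3, which pairs with Psmg4 on the same ring, stood at 17.0 and 14.9 CPM in the cycling and other cells of the WT host library and 34.4 and 8.12 CPM in those of the MARCH1-/- host library. The difference of 1.01 ± 0.39 (edgeR adjusted p 0.0373) came with a log2 ratio of 0.20 (-0.76 to 1.16) in the WT host library and 2.08 (0.72 to 3.80) in the MARCH1-/- host library. Psmg4, the most abundant of the 4 (chr13:34162964-34178173, GRCm38), did not pass, at 0.19 ± 0.24. None of the 3 cap chaperones passed, from -0.06 ± 0.28 for Psmd10, the most abundant, to 0.67 ± 0.32 for Psmd9. The inhibitor Psmf1, at 23.2 and 15.6 CPM in the cycling and other cells of the WT host library and 35.4 and 26.0 CPM in those of the MARCH1-/- host library, was fitted at 0.61 ± 0.34 (adjusted p 0.185).

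The largest difference of the whole set belonged to a gene that is not a proteasome subunit. Psmc3ip, a partner of the recombinases that repair DNA breaks, had 27 UMIs in cycling and 2 in other cells of the WT host library and 26 and 0 in the MARCH1-/- host library. In the latter it was at least 5.56-fold higher in cycling cells, against a floor of 3 counts for the other cells of that library. Its edgeR log2 difference was 4.41 ± 0.68 (adjusted p 2.2e-09), a fitted value that depends on the prior count because 1 group is at 0, and it was called under 11 of 11 alternatives. Psme2b lay at the other end (-0.71 ± 0.47, adjusted p 0.282), with 53 UMIs in all. Without Psmc3ip, 20 proteasome genes were called higher.

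Some members share the end of their transcript with another gene, so that counting can split or lose their UMIs. Of the 60-base stretches in the last 400 bases of the transcript, 72.1% were also found in another gene for Psmd1, 65.1% for Psme2 and for Psme2b, which share them with each other, 61.0% for Psmb5, 51.9% for Psmb3, 44.3% for Psma5, 21.1% for Psmd2 and 15.0% for Psme1. Values of these 8 are uncertain to that extent. Psmb6, Psmb7, Psmc3, Psma7 and Psmd13 shared 0%, and Psmc1 shared 9.38%. Without the 8 and Psmc3ip, 16 of 36 members were called higher in cycling cells.

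Within each library the summed member level was higher in the bins of cells at or above 0.5% cell cycle UMIs than in those under it. In the WT host library it was 5397 CPM in cells with under 0.2% cell cycle UMIs and 5501 CPM from 0.2 to 0.5%, then 6140.3, 6160.0 and 6021 CPM from 0.5 to 1%, 1 to 2% and above 2%. In the MARCH1-/- host library the levels were 5619, 6231, 7640.2, 8028 and 7498 CPM, of which the lowest bin rests on 18 cells and the middle bin on 13. Cells with more S-phase than G2 and mitosis UMIs and the remaining cycling cells stood at 5709 and 6167 CPM in the WT host library (21 and 100 cells) and at 7815 and 7726 CPM in the MARCH1-/- host library (9 and 53 cells). The level of other cells with a UMI of Il4, Il5 or Il13, the type 2 cytokines, was 5709 against 5262 CPM without one in the WT host library and 6245 against 6056 CPM in the MARCH1-/- host library, where the intervals overlap. Cells with such a UMI were deeper, at medians of 6623 against 4255 and 8345 against 5646 UMIs, and the part of depth was not tested.

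**Figure D4:**
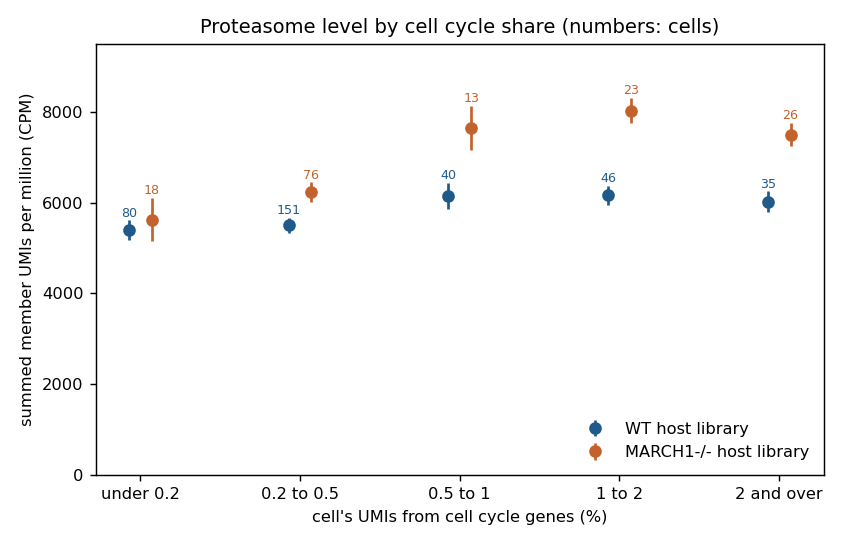
Summed level of all members (y axis, CPM, from 0) by the share of a cell's UMIs that come from cell cycle genes (x axis, percent), in the WT host (blue) and MARCH1-/- host (orange) libraries. Numbers give the cells in each bin and bars the exact Poisson 95% intervals; both libraries are higher from 0.5% on, and the MARCH1-/- host points of 18 and 13 cells are thinly filled.

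Depth moved with the level as well. Among other cells of the WT host library the summed level was 4902 CPM in cells of 500 to 5000 UMIs, 5562 CPM from 5000 to 10000 and 6492 CPM in the 11 cells above 10000. In the MARCH1-/- host library these levels were 5599, 6045 and 7125 CPM, the last in 8 cells. Among cycling cells they were 5555, 6085 and 6148 CPM in the WT host library and 7201, 6383 and 7891 CPM in the MARCH1-/- host library, where the lower bins hold 6 and 11 cells. At 5000 to 10000 UMIs the cycling cells stood above the other cells in both libraries. Above 10000 UMIs they did so in the MARCH1-/- host library and not in the WT host library.

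Most cells had several member transcripts. After each cell was thinned to 2000 UMIs, cycling cells held a mean of 11.7 ± 4.11 (SD between cells) member UMIs and other cells 10.2 ± 3.63 in the WT host library, with 9 and 12 cells left out as too shallow. In the MARCH1-/- host library the means were 15.7 ± 5.35 and 12.1 ± 4.27, with 1 cell left out of each state. Both pairs of distributions overlap widely. Unthinned medians were 59 and 25 UMIs, and 103 and 37 UMIs. RNA outside cells held the members at a similar level, 6368 and 6963 CPM in barcodes under 100 UMIs of the WT host and MARCH1-/- host libraries, and its part in the results was not tested.

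Other genes of the pathway were taken from lists that contain no member. Of 8 proteasome genes without a Psm name, 2 rose by edgeR, where the background of 15.0% amounts to about 1 in 8. Uchl5, a deubiquitinase bound to the cap, stood at 53.4 and 25.0 CPM in the cycling and other cells of the WT host library and 96.9 and 22.7 CPM in those of the MARCH1-/- host library. Its log2 difference was 1.61 ± 0.27 (adjusted p 4.92e-08), and its 2 cycling groups lay above both other groups. Txnl1, a thioredoxin of the cap, rose by 0.60 ± 0.19 (adjusted p 0.00888), while the chaperone Pomp (adjusted p 0.278) and the small lid subunit Sem1 (adjusted p 0.242) did not pass. Of 6 tested genes of a list on the NRF1 pathway, which renews proteasome transcripts when degradation falls short, and on proteasome import, 1 rose and 1 fell, near the background of 15.0% and 11.9% of all genes. Akirin2, an adaptor for import of proteasomes into the nucleus, rose (0.61 ± 0.24, adjusted p 0.0415) and Nfe2l1, which codes for NRF1, fell (-0.57 ± 0.23, adjusted p 0.0437). Rps27a, which codes for ubiquitin fused to a ribosomal protein, rose by 0.25 ± 0.08 (adjusted p 0.00684).

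The hosts were compared next, to ask whether donor cells in a host without MARCH1 carried other proteasome levels. With 1 library per host there is no test and no replicate check, so values are log2 ratios with counting intervals, positive where the MARCH1-/- host library was higher. The median of all 6762 genes with at least 50 UMIs was a log2 ratio of 0.25. Ribosomal protein transcripts took 27.7% of the UMIs in the WT host library and 22.7% in the MARCH1-/- host library. Values relative to that median gene are given too. The median over the 45 members was 0.43, or 0.17 above the median gene, and 36 of 45 were above 0 against 68.0% of all genes. Counted past 1.5-fold relative to the median gene, 9 members (20.0%) were higher, against 12.6% of all genes, and 4 (8.89%) were lower, against 15.2%. These shares lie near the background.

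Summed groups of different role stood on different sides of the median gene. The core stood at a log2 ratio of 0.51 (0.46 to 0.56), which is 0.26 above the median gene. The lid stood at 0.58 (0.49 to 0.68) and 0.33, and the ATPases at 0.36 (0.26 to 0.46) and 0.11. The non-ATPase subunits of the base went the other way, at -0.35 (-0.50 to -0.21) and -0.60, with Psmd1 and Psmd4 below 0 beyond their intervals and Psmd2 not (-0.10 (-0.39 to 0.19)). The summed activators stood at -0.45 (-0.55 to -0.35) and -0.70, a sum that holds Psme1 at -0.89 (-1.03 to -0.75), while Psme2 (0.15 (-0.02 to 0.31)), Psme3 (0.05 (-0.45 to 0.54)) and Psme4 (-0.17 (-0.64 to 0.29)) had intervals that include 0. The summed immune subunits stood at 0.72 (0.61 to 0.82), close to the 0.71 (0.58 to 0.85) of the 3 constitutive catalytic genes they can replace.

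**Figure D5:**
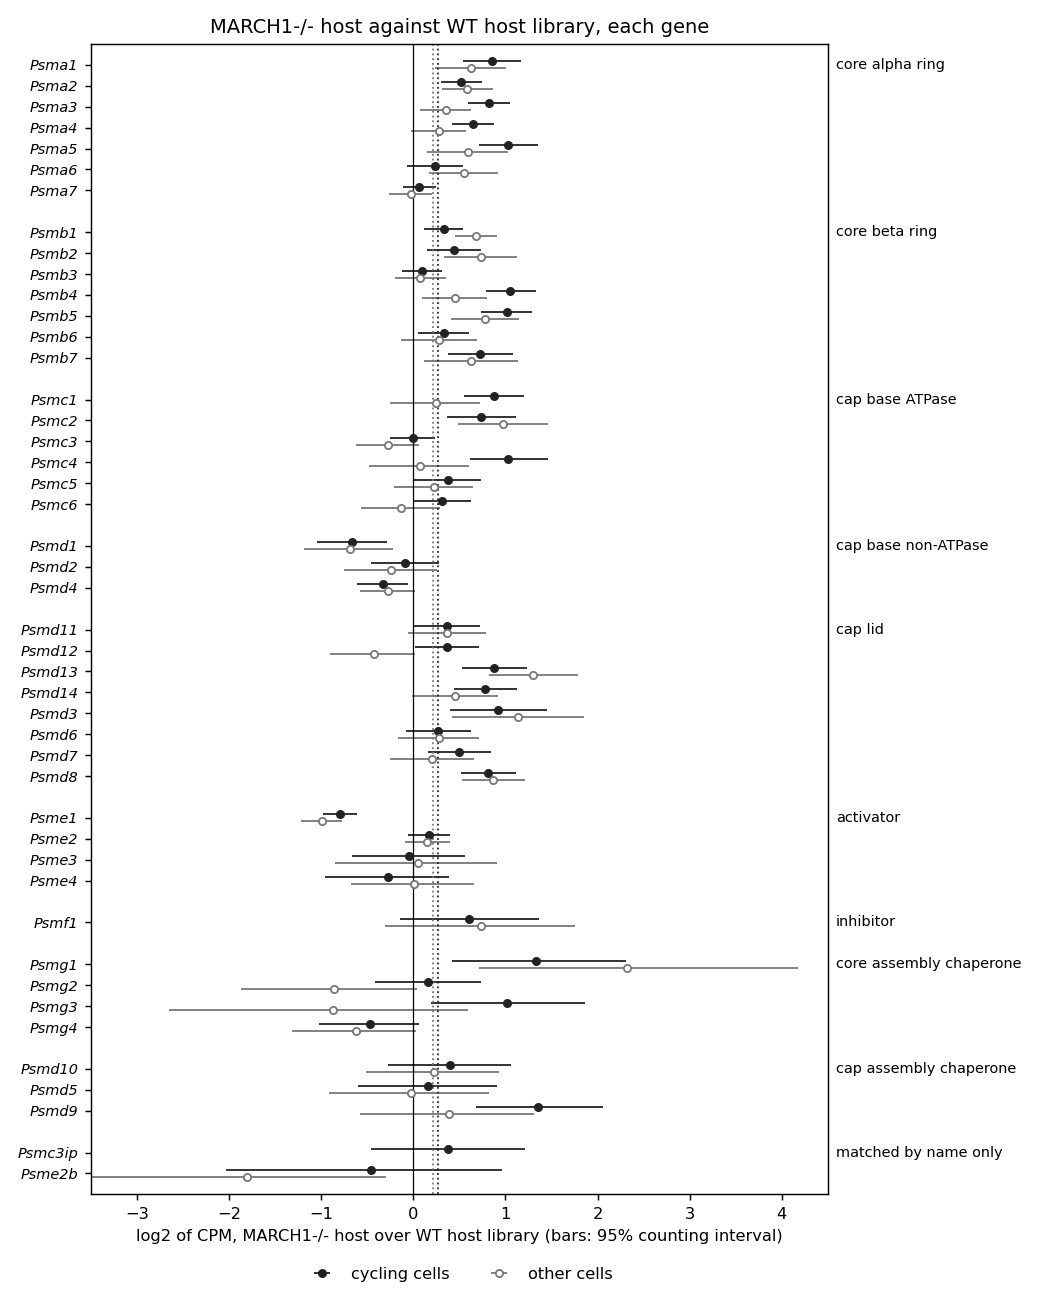
Log2 ratio of CPM between the libraries (x axis, positive where the MARCH1-/- host was higher) for each member, in cycling (filled) and other cells (open), with exact 95% counting intervals; dotted lines mark the median of all genes in each state. Psma5, Psmb5, Psmd13, Psmd3 and Psmd8 lie right of the lines in both states and Psme1, Psmd1 and Psmd4 left of them; the bar of Psme2b in other cells runs past the left edge, and Psmc3ip has no point there because its MARCH1-/- host count was 0.

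Among the genes higher in the MARCH1-/- host library, Psmd13 of the lid stood at 72.3 CPM over all cells of the WT host library and 154 CPM in the MARCH1-/- host library. The log2 ratio was 1.09 (0.80 to 1.37), or 0.83 relative to the median gene, and the state values given above do not overlap between libraries. Psmb5 went from 125 to 246 CPM (0.98 (0.76 to 1.20), relative 0.73), with the reservation about its shared transcript end. Psmg1 had the largest ratio, 1.71 (0.92 to 2.54), at 8.17 and 26.7 CPM, and Psmd9, a chaperone of the base, the third largest, 1.07 (0.55 to 1.60), at 21.8 and 45.7 CPM. Psmb4, Psma5, Psmc2, Psmd8 and Psmd3 were the other 5 past 1.5-fold, with log2 ratios between 0.84 and 1.05. Psma7, the most abundant core gene, stood at 0.07 (-0.07 to 0.21), below the median gene, and Psmb1 at 0.48 (0.32 to 0.63), above it.

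The lower members included the alpha chain of PA28, the most abundant member. Psme1 stood at 624 and 684 CPM in the cycling and other cells of the WT host library and at 359 and 343 CPM in the MARCH1-/- host library, with a log2 ratio over all cells of -0.89 (-1.03 to -0.75) and -1.14 relative to the median gene. Its partner Psme2, with which it forms 1 ring, stood at 278 and 311 CPM and at 313 and 346 CPM, a log2 ratio of 0.15 (-0.02 to 0.31). UMIs of Psme1 were in 90.6% of WT host and 85.9% of MARCH1-/- host cells. After thinning to 2000 UMIs, with shallower cells left out, the expected shares were 71.0% and 49.3%. The lower level was thus present in both states and in the share of cells at equal depth. Psmd1 (-0.66 (-0.96 to -0.36)), Psmg4 (-0.52 (-0.94 to -0.12)) and Psme2b (-1.23 (-2.33 to -0.24)) were the other 3, of which Psmd1 and Psme2b share much of their transcript ends. Without members of shared ends or matched by name only, 1 member, Psmg4, was lower past 1.5-fold over all cells.

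The states gave different counts. In cycling cells 10 of 43 members with at least 50 UMIs (23.3%) were higher past 1.5-fold, against 13.1% of all genes, and 4 (9.30%) lower, against 17.0%. In other cells 4 of 39 (10.3%) were higher, against 13.4%, and 5 (12.8%) lower, against 16.7%. Relative to the median gene, the summed members stood at 0.08 in cycling and -0.05 in other cells. Psmd13 and Psmd3 were higher past 1.5-fold in both states, and Psme1, Psmd1 and Psmg4 lower in both. Psmc4, an ATPase, stood at 1.03 (0.61 to 1.46) in cycling and 0.07 (-0.48 to 0.60) in other cells, and Psmc1 at 0.88 (0.55 to 1.21) and 0.24 (-0.25 to 0.73). Whether these ratios differ between states was not tested.

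Values of other genes stood beside the host ratios. Summed B cell markers were 28.6 and 17.2 CPM in the WT host library and 114 and 89.3 CPM in the MARCH1-/- host library. Over both libraries Ighm held 211 of these UMIs, Cd79b 7, Cd79a 3 and Igkc 2, while Ms4a1 was at 0. Summed CD4 T cell markers were higher in the MARCH1-/- host library, at 5937 against 4401 CPM over all cells. Cd4, Cd3d and Cd3e of that list were lower there, and its other genes were higher. Cd4 stood at 333 and 634 CPM in the cycling and other cells of the WT host library, against 186 and 411 CPM. The type 2 cytokines were lower in the MARCH1-/- host library, Il13 at 331 against 786, Il4 at 71.7 against 185 and Il5 at 16.5 against 146 CPM over all cells. Of the regulatory T cell markers Il2ra was lower there (168 against 322 CPM) and Ctla4 higher (909 against 566 CPM), with Foxp3 at 35.5 against 37.3 and Ikzf2 at 168 against 143 CPM. Sem1, the lid subunit without a Psm name, stood at a log2 ratio of -0.84 (-0.95 to -0.73). The part of these differences in the members' host ratios was not tested.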

How the data were processed

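RNA was measured in single donor CD4 T cells of 2 libraries, 1 per host, made with the 10x 3' kit v3.1 per the labels' protocols. The deposited matrices hold whole-number UMI counts per gene and barcode, not normalized, for all barcodes. The submitters' processing notes name Cell Ranger 3.1.0 and build mm10, per the file headers the Cell Ranger version was 4, and the sources used here give no annotation. From the deposited counts, cells were kept at 500 UMIs, 250 genes and 10% mitochondrial UMIs, with Scrublet doublets (5 and 5; expected rate 0.05; scanpy 1.11.5) kept. Near the cycling limit, between 0.4 and 0.6% cell cycle UMIs, lay 38 and 14 cells.

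Counts were summed per library and state (4 sums) and tested with edgeR 4.0.16 (R 4.3.3; TMM scaling, filterByExpr, a library term, quasi-likelihood test, Benjamini-Hochberg adjustment over all genes kept, threshold 0.05), after a test on simulated data. The p-values rest on a spread between these 2 libraries that edgeR shared over all genes, and on no spread beyond them. The fit had a median of 7718 residual and prior degrees of freedom, of which 1 was residual. How far the 2 libraries disagreed on a single gene therefore had little weight. Intervals (95%; Poisson, conditional binomial and Clopper-Pearson; scipy 1.17.1) cover counting error only. Host ratios have no test: 1.5-fold past the median gene counted as a call. Gene positions came from GENCODE M21 (GRCm38), promoter sequences from RefSeq (GRCm38.p6). Alternatives were DESeq2 1.42.0 size factors and its Wald test, no low-count filter, no library term, other limits for cycling, cells, depth and genes, other scaling and weighting, and no doublets.

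The members, lists and tests were chosen with earlier results of these data known. Named with full statistics were the most abundant member of each role and the 3 highest and 3 lowest of each contrast; any member with at least 50 UMIs could be named. From other lists, up to 4 abundant genes and those that passed were named. Some genes of the ubiquitin and marker lists are not reported here.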

Additional observations from a re-analysis of the deposited data

Results flagged for a closer look

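Barcodes over the mitochondrial limit, which entered no comparison, held proteasome transcripts at a lower share than cells did. Their summed member level was 3111 CPM in 72 barcodes of the WT host library and 2682 CPM in 25 barcodes of the MARCH1-/- host library, against 5788 and 7112 CPM in cells. They are listed because they are a signal in data that no comparison used.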

How the results depend on the processing

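The count of 21 members called higher in cycling cells was 1 with the DESeq2 Wald test, 7 with no filter on low counts, 1 without the library term, 4 with cycling set at 0.3%, 3 with cycling read from Mki67 or Top2a UMIs in thinned cells and 1 in cells of 5000 to 15000 UMIs; 0 were called lower in each. Apart from Psmc3ip, the calls were Psmb6, Psma5 and Psmd13 at 0.3%, Psmb6 and Psmc1 by Mki67 or Top2a, and none where the count was 1. The cycling median of the WT host library, 0.22, became 0.14 at 0.3%, 0.12 by Mki67 or Top2a, 0.17 in cells of 5000 to 15000 UMIs and 0.27 with cells weighted equally. That of the MARCH1-/- host library, 0.44, became 0.34 at 1%, 0.21 by Mki67 or Top2a, 0.20 in cells of 5000 to 15000 UMIs and 0.37 for genes with at least 100 UMIs. The mean of both, 0.33, ranged from 0.22 to 0.44 when a library was left out. The host median over all cells, 0.43, became 0.39 for genes with at least 100 UMIs and 0.33 when totals left out ribosomal protein and mitochondrial genes. In cycling cells, 0.37 became 0.44 at 0.3%, 0.42 at 1% and 0.29 with those totals. In other cells, 0.24 became 0.31 at 1%, 0.35 with equal weights (with 3 members lower in place of 5) and 0.13 with those totals. Without members of shared transcript ends or matched by name only, a choice made after seeing the data, the host medians were 0.51 over all and 0.44 in cycling cells, and 1, 2 and 3 members were lower over all, cycling and other cells. The cause of these shifts was not tested. The other 93 recomputed values stayed within 1.5 times a count, or moved a median by no more than the counting error of the summed members' log2 ratio. That limit is not a spread between members, cells or animals. None of the values changed sign. With 508 cells in 2 libraries, members under 100 UMIs have wide intervals. For the host comparison no paired analysis was possible because each host has 1 library; the cycling comparison is paired within libraries through the library term.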
